A study of Mus musculus with 9 samples.

Results

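The comparison described here sets perigonadal white adipose tissue of LCS/LCS mice against that of wild-type (wt) mice, all aged 4 months. Its members are the 3 arrays titled LCS/LCS and the 3 titled wt, chosen by their titles, so 6 of the 9 arrays of the series. The remaining 3 arrays are from G609G/G609G mice of the same age and tissue, and they are used only for the shared estimate of spread and for values set side by side. Lmna encodes lamins A and C. Its LCS allele is known to yield only lamin C, and its G609G allele to yield progerin, a truncated lamin A. The labels give the allele names only, so these meanings come from knowledge of the alleles and not from the data. In a homozygous mouse both copies of the gene are of the same allele in every cell, so the adipocyte and all other cells of the fat pad carry it. No strain, sex or number of animals behind an array is given in the labels, although the series calls its replicates biological. P-values therefore measure no more than array-to-array spread, part of which may be technical. Each array gave a log2 signal per probe set, a set of probes of 1 transcript, from total RNA of snap-frozen tissue. Of 23332 probe sets, 14996 were paired with a single gene symbol, and these stood for 14860 genes.

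White adipose tissue stores triglyceride in large adipocytes, which also secrete hormones such as leptin and adiponectin. Vessels, fibroblasts that lay down collagen, adipose progenitors, macrophages and, in visceral pads, a covering mesothelium make up the rest of the tissue. Lamins A and C form a meshwork under the inner nuclear membrane and are made from Lmna by alternative splicing. The perigonadal pad lies against the reproductive organs, in a male mouse the epididymis and testis.

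The LCS/LCS arrays correlated at 0.994 to 0.995 with each other over all probe sets and the wt arrays at 0.992 to 0.995, while an LCS/LCS array correlated with a wt array at 0.978 to 0.982. The median signal was 6.37, 6.31 and 6.34 on the LCS/LCS arrays and 6.36, 6.37 and 6.45 on the wt arrays. Because the medians differ slightly, each direction was also checked after quantile normalization and after centring each array on its median, which together with the deposited values are called the 3 scalings below. Values identical to 2 decimals were common within a genotype: wt replicates 1 and 2 shared 2399 probe set values, against 874 and 917 that differed by 0.01 in either direction. The cause was not tested. For 842 probe sets the 3 values of LCS/LCS or of wt were all identical, and an SD of 0 is then no measure of the error. The SE and adjusted p of any gene given below with the same value on each array of a genotype carry this limit. Of the 4005 calls given below, 229 were among them.

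The labelled tissue was checked against marker genes. All 18 measured white adipocyte identity genes lay above the median of the wt arrays. Their summed signal was 16.54 to 16.56 (log2) on the LCS/LCS arrays and 16.43 to 16.44 on the wt arrays. Adipoq, which encodes adiponectin, was among the brightest genes of the tissue at 13.16, 13.18 and 13.15 in LCS/LCS and 13.15, 13.18 and 13.06 in wt. Transcripts of the epididymal epithelium were as bright. The summed signal of 39 epididymal genes was 16.79 on every LCS/LCS array and 16.81 to 16.82 on the wt arrays. Gpx5, an epididymal secretory peroxidase, stood at 13.50, 13.54 and 13.47 in LCS/LCS and at 13.42, 13.40 and 13.38 in wt. Transcripts of that epithelium are thus part of what was measured in both genotypes. The median SD of the 39 genes was 0.04 over the LCS/LCS arrays and 0.042 over the wt arrays, against 0.061 and 0.076 for all genes and 0.044 and 0.058 for the brightest 25% of genes.

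The wt arrays also carried transcripts of testis and germ cells that were low on the LCS/LCS arrays. The summed signal of 37 such genes was 11.07 to 11.16 in LCS/LCS and 13.72 to 13.86 in wt. The liver list of 12 genes, which includes secreted plasma proteins, summed to 9.1 to 9.22 in LCS/LCS and 10.64 to 10.71 in wt. Skeletal muscle genes summed to 11.34 to 11.38 in LCS/LCS and 10.33 to 10.46 in wt, with Acta1 as their brightest member in both. A sum of linear signals follows its brightest genes, in the liver list Alb on the wt arrays. Of the 12 liver genes 8 fell, and of the 16 muscle genes 4 rose. The part of these neighbouring tissues in the results below was not tested. In a bulk sample, fewer cells of a type and less of an RNA per cell cannot be told apart. The plot of summed marker signals shows these levels for each array.

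**Figure D1:**
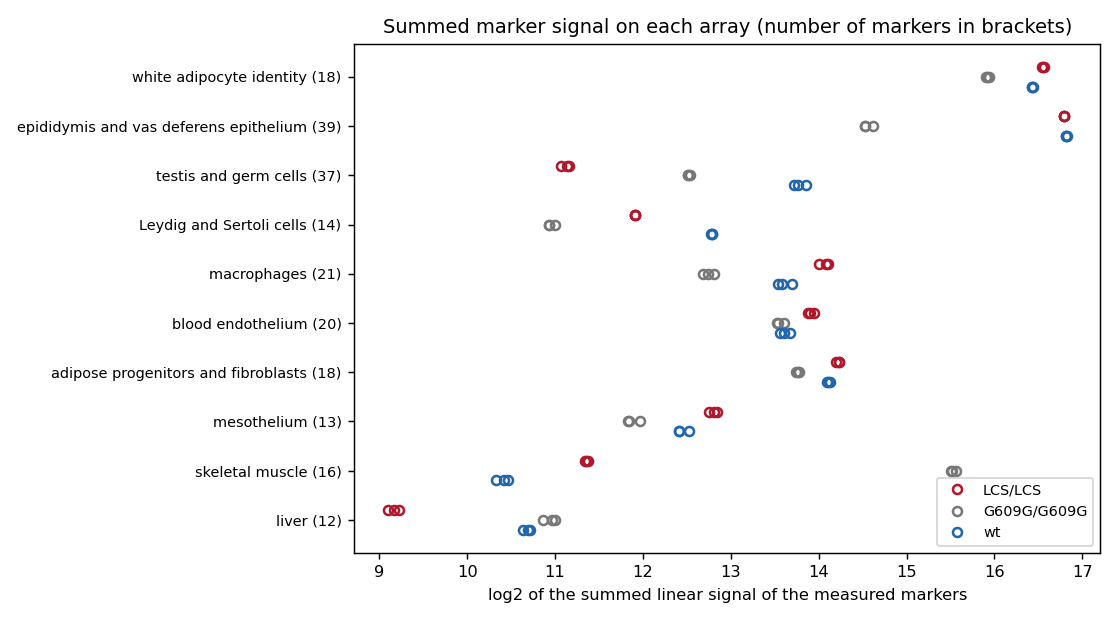
Log2 of the summed linear signal of each marker list (x axis) on each of the 9 arrays, 1 point per array, with LCS/LCS above G609G/G609G and wt in each row. The epididymal sum is 16.79 on the 3 LCS/LCS arrays and 16.81 to 16.82 on the 3 wt arrays, while the testis and germ cell sum is 11.07 to 11.16 in LCS/LCS and 13.72 to 13.86 in wt.

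Over all probe sets, limma with Benjamini-Hochberg adjustment at 0.05 found 2194 higher (9.4%) and 1811 lower (7.76%) in LCS/LCS than in wt, together 17.2% of 23332. The split leaned further to rises after median centring, with 3551 higher and 1698 lower. Such a probe set or gene is called below, and "rose" and "fell" are used of called genes only. Among the 14860 genes, 1895 rose and 1452 fell, which are 12.8% and 9.77% of the genes tested. Under all 3 scalings 1785 rises and 1295 falls (8.71%) were called, and among all probe sets 8.83% were called higher in each scaling. The changes were small for the most part: the median rise was 0.41 and the median fall -0.558 on the log2 scale, and 422 genes rose and 687 fell by at least 1.5-fold (2.84% and 4.62%; of all probe sets, 3.76% fell that far). The 3 LCS/LCS values and the 3 wt values did not overlap in any of the 3347 called genes. Non-overlap alone was more common, with 25.6% of genes above and 18.1% below (20.3% above over all probe sets). The median change of all genes was 0.027, and it was 0.042 after quantile normalization and 0.078 after centring, so each list below is to be read against a median close to 0. All lists were chosen with earlier results of these data known, so the share of a list that was called describes its members and is no test. Its counts are to be read against the 12.8% of genes that rose and the 9.77% that fell. These shares are not matched to the brightness of a list, and brighter probe sets were called higher more often. Without the dimmer 50% of probe sets, 2326 were called higher and 1265 lower. In the adipokine list 18 of 20 members had a mean wt signal above the median of the wt arrays, in the T and NK list 2 of 19. The number of probe sets called higher was 1322 without LCS/LCS replicate 1, 1382 without LCS/LCS replicate 3, 1369 without wt replicate 1 and 1376 without wt replicate 2, and all calls together were 2669 without LCS/LCS replicate 3.

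Lmna itself had log2 signals of 7.59, 7.49 and 7.64 in LCS/LCS and 7.64, 7.57 and 7.60 in wt. The groups overlapped, and the change of -0.03 (SE 0.07) did not pass the test (limma adjusted p = 0.86). A probe set for the whole gene does not separate lamin A from lamin C transcripts, so it does not check the genotype. Zmpste24, the protease that trims prelamin A, had a change of 0.13 (SE 0.09, adjusted p = 0.454). Of 20 measured genes of lamins and the nuclear envelope, 4 rose and 2 fell, with a median change of 0.01. Banf1, a chromatin protein that binds lamins and helps nuclei re-form after mitosis, had 11.25, 11.18 and 11.21 in LCS/LCS and 10.64, 10.63 and 10.69 in wt. Its rise of 0.56 (SE 0.07, adjusted p = 0.000731) left the groups well apart. Fntb, a subunit of the enzyme that farnesylates prelamin A, rose by 0.50 (SE 0.10). Nup210, a nuclear pore membrane protein, fell to 7.18, 7.07 and 7.11 in LCS/LCS, against 8.04, 7.93 and 8.10 in wt, a log2 change of -0.90 (SE 0.07). Sun2, which spans the inner nuclear membrane, rose by 0.30 (SE 0.07) and Syne2, its partner in the outer membrane, had a change of -0.27 (SE 0.07). Both calls were lost without any 1 of several arrays, including each LCS/LCS array. Splicing factors of the SR family and their regulators had 2 rises and 2 falls among 20 (10.0% each, near the shares of all genes). Their median was 0.01, with no rise called without wt replicate 1 or 2 or LCS/LCS replicate 1 or 3. Srsf5 fell by 0.34 (SE 0.06), Clk1, a kinase of SR proteins, fell by 0.23 (SE 0.05), and Srsf1 had 0.04 (SE 0.09, adjusted p = 0.846).

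The genes of adipokines and of transcripts known to track fat mass were higher in LCS/LCS fat. Of 20 measured members, 14 rose and none fell, which is 70.0% against 12.8% of all genes, and the median change was 0.37. As with every list here, the members were chosen with earlier results known, so the share is no test. The count stayed between 12 and 14 when any 1 array was left out, and all 14 were called under the 3 scalings, while 2 others fell after quantile normalization. Cav1, Cav2 and Cavin1 among them are also on the caveola list below. Lep, which encodes leptin, had signals of 12.39, 12.40 and 12.31 in LCS/LCS and 11.25, 11.25 and 11.24 in wt. Every LCS/LCS array stood more than 1 log2 unit above every wt array. The difference was 2.17-fold (log2 change 1.12, SE 0.08, limma adjusted p = 3.7e-05). Sfrp5, which adipocytes secrete to block Wnt ligands, had 11.44, 11.33 and 11.41 in LCS/LCS and 9.83, 9.65 and 10.01 in wt, a ratio of 2.96 (log2 change 1.56, SE 0.13, adjusted p = 0.000125). Its wt values spread more than those of Lep, but the groups did not overlap. Apln, which encodes the vasoactive peptide apelin, had 6.52, 6.58 and 6.40 in LCS/LCS against 5.46, 5.52 and 5.42 in wt (log2 change 1.03, SE 0.08, adjusted p = 0.000107). Its wt values lay below the wt array medians, and the groups did not overlap. Trp53inp2, a regulator of autophagy, rose by 0.93 (SE 0.05), Npr3, the clearance receptor of natriuretic peptides, by 0.83 (SE 0.08), Sncg, a synuclein of adipocytes, by 0.58 (SE 0.07) and Rbp4, the retinol carrier, by 0.25 (SE 0.05), all 4 named after their values were seen. Not every adipokine moved: the changes of Adipoq (0.03, SE 0.05, adjusted p = 0.757) and Retn, which encodes resistin (0.01, SE 0.04, adjusted p = 0.953), did not pass the test and changed sign with the scaling.

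The proximal promoter of Lep is shown because Lep rose and because it holds an element known to be bound by C/EBP factors. It is 200 bases upstream of the transcription start, from RefSeq on GRCm38.p6, chr6:29060021-29060220, plus strand, with the palindrome TTGCGCAA in capitals.
Lep: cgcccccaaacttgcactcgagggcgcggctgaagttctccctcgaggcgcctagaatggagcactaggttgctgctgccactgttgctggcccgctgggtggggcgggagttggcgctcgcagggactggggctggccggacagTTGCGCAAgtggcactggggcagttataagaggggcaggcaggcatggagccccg
The first base of the motif is at position -55. It reads the same on both strands, and 54 of 32851 promoter windows of 250 upstream bases (0.164%) held it, or by gene 50 of 27025 (0.185%). Of the 16 adipokine members with such a window, Lep was the 1 that did. Cebpb, a C/EBP factor, had 7.64, 7.55 and 7.60 in LCS/LCS against 6.94, 6.99 and 7.21 in wt, a rise of 0.55 (SE 0.10, limma adjusted p = 0.00529). Cebpa, the C/EBP factor of mature adipocytes, had 0.17 (SE 0.06, adjusted p = 0.108). The sequence was picked after the values were seen, and a match is a description and not a sign of binding.

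**Figure D2:**
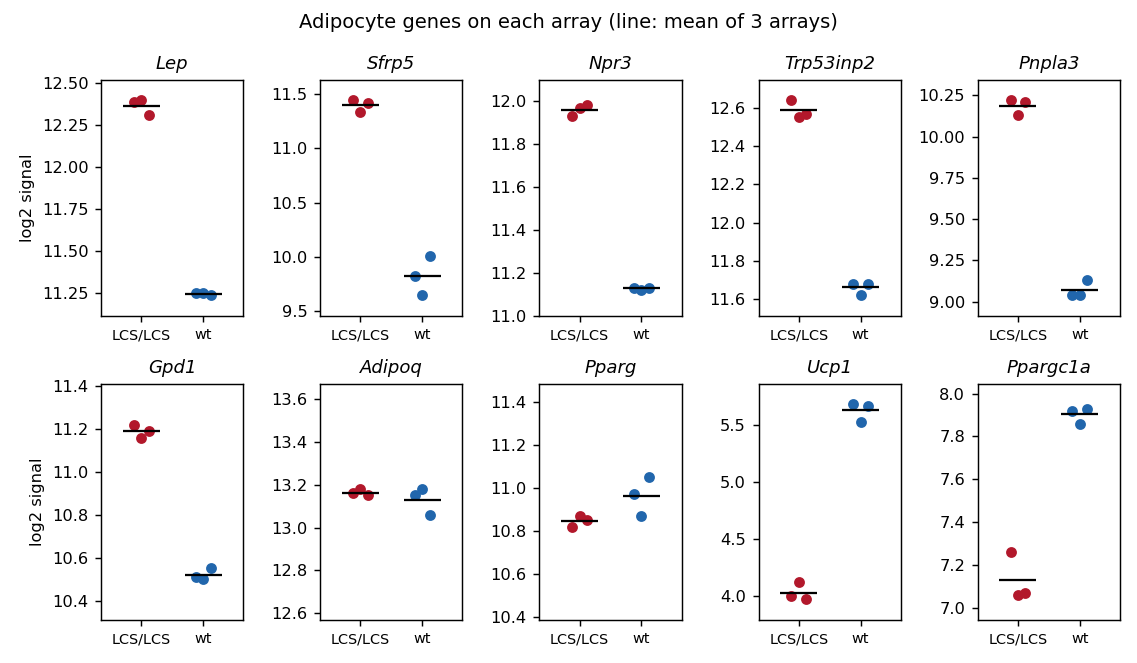
Log2 signal (y axis, scaled per gene) of 10 adipocyte genes on the 3 LCS/LCS arrays (left, red) and the 3 wt arrays (right, blue), with the mean as a line. Lep is at 12.31 to 12.40 in LCS/LCS and 11.24 to 11.25 in wt, while Adipoq overlaps and Ucp1 and Ppargc1a lie lower in LCS/LCS.

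Of 18 measured genes of white adipocyte identity, 7 rose and 1 fell (38.9% and 5.6%), and the median change was 0.12. Without wt replicate 1 or 2 or LCS/LCS replicate 1 or 3, only 4 rises were called. Gpd1, which makes the glycerol 3-phosphate backbone of triglyceride, had 11.22, 11.16 and 11.19 in LCS/LCS and 10.51, 10.50 and 10.55 in wt (log2 change 0.67, SE 0.05, limma adjusted p = 5.39e-05). Slc2a4, the glucose transporter that insulin moves to the cell surface, rose by 0.33 (SE 0.08, adjusted p = 0.0294), a call that was lost without any LCS/LCS array and without wt replicate 1 or 2. Cidea, a lipid droplet protein most abundant in brown fat, fell to 5.87, 5.88 and 5.94 in LCS/LCS, against 6.40, 6.46 and 6.33 in wt. Pparg, the master regulator of adipocyte differentiation, had 10.82, 10.87 and 10.85 in LCS/LCS and 10.97, 10.87 and 11.05 in wt. Its groups touched at 10.87, and the change of -0.12 (SE 0.06) was not called as deposited (adjusted p = 0.257) but was after quantile normalization (-0.18, adjusted p = 0.0345).

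Triglyceride synthesis genes had 6 rises and 1 fall among 15, with a median of 0.18. Pnpla3, a lipid droplet hydrolase and transacylase of adipocytes, had 10.22, 10.13 and 10.21 in LCS/LCS and 9.04, 9.04 and 9.13 in wt. Its log2 change of 1.12 (SE 0.07, limma adjusted p = 3.22e-05) was the largest of the list and was as large as that of Lep. Mogat2, which adds a fatty acid to monoacylglycerol, rose by 0.66 (SE 0.09). The 2 enzymes of the last step moved apart. Dgat2 had 11.97, 11.89 and 11.93 in LCS/LCS and 11.39 on each wt array, a rise of 0.54 (SE 0.08, adjusted p = 0.00236). Dgat1 had 11.12, 11.09 and 11.13 in LCS/LCS and 11.30 on each wt array, a change of -0.19 (SE 0.05, adjusted p = 0.026) that was not called after median centring (-0.14, adjusted p = 0.068) or without any 1 of the 6 arrays. The wt values of both were identical to 2 decimals, so their wt SD of 0 is no measure of the error.

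The Pnpla3 promoter, 200 bases upstream of the start on GRCm38.p6, chr15:84167616-84167815, plus strand, is printed with a full cyclic AMP response element, TGACGTCA, in capitals. It is set beside those of the immediate early genes Dusp1 and Btg2 further down, which hold the same letters.
Pnpla3: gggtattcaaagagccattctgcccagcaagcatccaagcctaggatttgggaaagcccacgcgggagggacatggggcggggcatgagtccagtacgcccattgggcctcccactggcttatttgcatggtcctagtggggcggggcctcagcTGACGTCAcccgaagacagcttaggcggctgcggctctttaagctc
The element starts at position -46 and reads the same on both strands. Of 32851 windows of 250 upstream bases, 508 (1.55%) held it. By gene, 478 of 27025 with a window (1.77%) did, as did 1 of the 11 triglyceride synthesis members with a window. Of the 16 adipokine members with a window, Trp53inp2 held it as well. The sequence was picked after the values were seen, and a match is no sign of binding.

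Lipolysis and lipid droplet genes had 10 rises and no fall among 18, with a median change of 0.20. Without wt replicate 1, LCS/LCS replicate 1 or LCS/LCS replicate 3 only 4 were called higher, and without wt replicate 2 only 5. The most stable of them included Abhd5, the coactivator of the lipase Pnpla2. It had 10.53, 10.44 and 10.46 in LCS/LCS against 10.06, 9.95 and 10.12 in wt (log2 change 0.43, SE 0.06, limma adjusted p = 0.00225). Fitm2, an endoplasmic reticulum protein needed for droplet formation, rose by 0.39 (SE 0.06). Cideb had the largest change of the list (0.70, SE 0.17, adjusted p = 0.0236), with LCS/LCS values of 8.56, 8.05 and 8.25 that were far apart, and its call was lost without any of 5 of the 6 arrays, LCS/LCS replicate 2 being the exception. Pnpla2 itself had 0.06 (SE 0.05, adjusted p = 0.462).

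Of 17 measured genes of fatty acid synthesis, 1 rose and 3 fell (5.9% and 17.6%), or 1 and 6 after quantile normalization, and the median was -0.07. Thrsp, a lipogenic regulator responsive to thyroid hormone, fell to 9.49, 9.46 and 9.48 in LCS/LCS, against 10.11, 10.18 and 10.26 in wt (log2 change -0.71, SE 0.06, limma adjusted p = 0.000137). Mid1ip1, which activates acetyl-CoA carboxylase and is a relative of Thrsp, fell by 0.51 (SE 0.09) and Acly, which makes cytosolic acetyl-CoA from citrate, fell by 0.31 (SE 0.05). Pgd, an NADPH-producing enzyme of the pentose phosphate pathway, rose by 0.75 (SE 0.06, adjusted p = 0.000123). Fasn, the fatty acid synthase, had 12.47, 12.43 and 12.45 in LCS/LCS and 12.48, 12.44 and 12.50 in wt. The groups overlapped, and neither Fasn (-0.02, adjusted p = 0.843) nor the desaturase Scd1 (0.01, adjusted p = 0.908) passed the test.

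Uptake genes had 4 rises and 1 fall among 12 (33.3% and 8.3%). Angptl4, an inhibitor of lipoprotein lipase induced by fasting, had 11.87, 11.88 and 11.88 in LCS/LCS and 11.34, 11.37 and 11.39 in wt (log2 change 0.51, SE 0.04, limma adjusted p = 0.000145). Gpihbp1, which anchors that lipase on capillary endothelium, rose by 0.46 (SE 0.05) and Vldlr, a receptor for triglyceride-rich lipoproteins, by 0.35 (SE 0.05), while Lpl itself had 0.05 (SE 0.04, adjusted p = 0.592). Acsl4, an acyl-CoA synthetase that prefers arachidonic acid, fell by 0.44 (SE 0.06). Of 19 fatty acid oxidation genes, 4 rose and none fell, a count that was 10 after median centring and 7 or 8 without G609G/G609G replicate 2 or 3 (the spread is shared with those arrays). Ehhadh, a peroxisomal enzyme, led it with 0.46 (SE 0.06). Sterol synthesis genes had 3 rises and 1 fall among 17 (17.6% and 5.9%), the fall being Fdft1, the squalene synthase, by 0.44 (SE 0.05).

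Thermogenic genes moved in both directions, with 4 rises and 5 falls among 22 and a median of 0.01. These are 18.2% and 22.7%, against 12.8% and 9.77% of all genes. Ucp1, the uncoupling protein of brown and beige fat, had 4.00, 4.12 and 3.97 in LCS/LCS and 5.68, 5.53 and 5.67 in wt (log2 change -1.60, SE 0.08, limma adjusted p = 8.08e-06). Both groups lay below the array medians, so Ucp1 was low in both, and without detection calls such signals cannot be told from background. Ppargc1a, the coactivator that drives mitochondrial genes, fell to 7.26, 7.06 and 7.07, against 7.92, 7.86 and 7.93 in wt (log2 change -0.77, SE 0.08, adjusted p = 0.000277). Cited1, a transcription cofactor used as a beige marker, fell by 0.90 (SE 0.10). Prdm16, a determinant of brown and beige fate, was higher at 6.83, 6.76 and 6.82 in LCS/LCS and 6.40, 6.46 and 6.40 in wt, a rise of 0.38 (SE 0.07). Pdk4, a kinase that restrains pyruvate use during fasting, rose by 0.61 (SE 0.05), with 11.45 on each LCS/LCS array and 10.83, 10.80 and 10.88 in wt. Otop1, a proton channel of brown fat, had a change of 0.64 (SE 0.16) at signals below 4.2, and its call was lost without any of 5 of the 6 arrays. In the creatine cycle, Gamt, which makes creatine, fell by 0.77 (SE 0.09), while Slc6a8, the creatine transporter, rose by 0.62 (SE 0.07) and Ckb, the brain-type creatine kinase, by 0.41 (SE 0.06).

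Among 34 genes of the respiratory chain, 4 rose and 4 fell (11.8% each), close to the 12.8% and 9.77% of all genes. Cox15, needed to make heme A for cytochrome oxidase, had 8.84, 8.75 and 8.92 in LCS/LCS and 7.97, 7.93 and 8.15 in wt, a rise of 0.82 (SE 0.10, limma adjusted p = 0.000774). Ndufs4, a subunit of complex I, fell by 0.48 (SE 0.09), Sdhb, of complex II, by 0.32 (SE 0.05), and Cox4i1, of complex IV, by 0.31 (SE 0.06). After quantile normalization 7 members were lower, and after median centring 7 were higher. Of 20 genes of the tricarboxylic acid cycle and pyruvate entry, none rose and 3 fell, where 12.8% and 9.77% of all genes did, while quantile normalization gave 6 falls and median centring 2 rises. The falls as deposited were of Pdk1, a kinase of pyruvate dehydrogenase (-0.82, SE 0.08), Pdha1, the catalytic subunit of that enzyme (-0.27, SE 0.05), and Pdk2. Of 21 genes of mitochondrial biogenesis and ribosomes and of 19 of branched-chain amino acid breakdown, 1 each rose and none fell, and both medians were 0.01. In branched-chain amino acid breakdown 5 rose after median centring and 2 fell after quantile normalization, and the rise in mitochondrial biogenesis was not called without any 1 of the 6 arrays.

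In glycolysis, 5 of 14 genes rose and 1 fell. Slc16a1, the lactate and pyruvate transporter MCT1, rose by 0.71 (SE 0.10), Tpi1 by 0.64 (SE 0.10) and Pfkp, a phosphofructokinase, by 0.59 (SE 0.08), while Hk1 fell by 0.56 (SE 0.08). Insulin signalling genes had 5 rises and 3 falls among 14, the rises being 3 without wt replicate 2 or any LCS/LCS array and the falls 1 without any wt array or LCS/LCS replicate 2 or 3. Grb14, an adaptor that inhibits the insulin receptor, had 7.62, 7.62 and 7.55 in LCS/LCS and 7.12, 7.03 and 7.17 in wt (log2 change 0.49, SE 0.07, limma adjusted p = 0.00141). Irs1, which relays the receptor's signal, had 8.73, 8.48 and 8.54 in LCS/LCS and 8.93, 8.91 and 9.14 in wt, a change of -0.41 (SE 0.10, adjusted p = 0.0276) whose call was lost without any of 5 of the 6 arrays. Tbc1d1, a GTPase activator in glucose transporter traffic, fell by 0.40 (SE 0.08). Of 18 genes of the IGF axis and growth hormone signalling, 7 rose and none fell, or 11 rose after median centring and 2 fell after quantile normalization. Igfbp6 and Igfbp3, binding proteins of the insulin-like growth factors, rose by 0.73 (SE 0.06) and 0.63 (SE 0.07). Igf1, named after its values were seen, had 9.82, 9.76 and 9.81 in LCS/LCS and 9.34, 9.40 and 9.44 in wt, a rise of 0.40 (SE 0.05). Socs3, a feedback inhibitor of cytokine receptors, had 2 probe sets, with changes of 0.56 and 0.17.

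Several receptors from a list drawn up for fat were higher, and bulk tissue does not show which cells carried them. Of 30 peptide, lipid and hormone receptors, 11 rose and 1 fell, with a median of 0.23, but only 5 to 7 were called higher without wt replicate 1, wt replicate 2 or any LCS/LCS array. Oxtr, the oxytocin receptor, had 8.91, 8.86 and 8.93 in LCS/LCS and 7.53, 7.35 and 7.57 in wt, a ratio of 2.67 (log2 change 1.42, SE 0.13, limma adjusted p = 0.000235). Nr1h3, the sterol-sensing receptor LXR alpha, rose by 0.73 (SE 0.11). Lepr, the leptin receptor, was dim at 5.06, 5.08 and 5.05 in LCS/LCS and 5.40, 5.47 and 5.48 in wt, and its change of -0.39 (SE 0.10, adjusted p = 0.031) was not called without any 1 of the 6 arrays. In cyclic AMP signalling, Adcy5, an adenylyl cyclase, had 10.08, 10.02 and 10.09 in LCS/LCS and 8.91 on each wt array (log2 change 1.15, SE 0.05, adjusted p = 3.3e-06). Its wt values were identical to 2 decimals, so their SD of 0 is no measure of the error. Crem, a modulator of genes with cyclic AMP response elements, fell to 6.59, 6.72 and 6.80, against 7.30, 7.46 and 7.77 in wt (log2 change -0.81, SE 0.13). The whole list had 5 rises and 2 falls among 25, with 8 rises after median centring and 2 or 3 without wt replicate 1, wt replicate 2 or any LCS/LCS array.

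**Figure D3:**
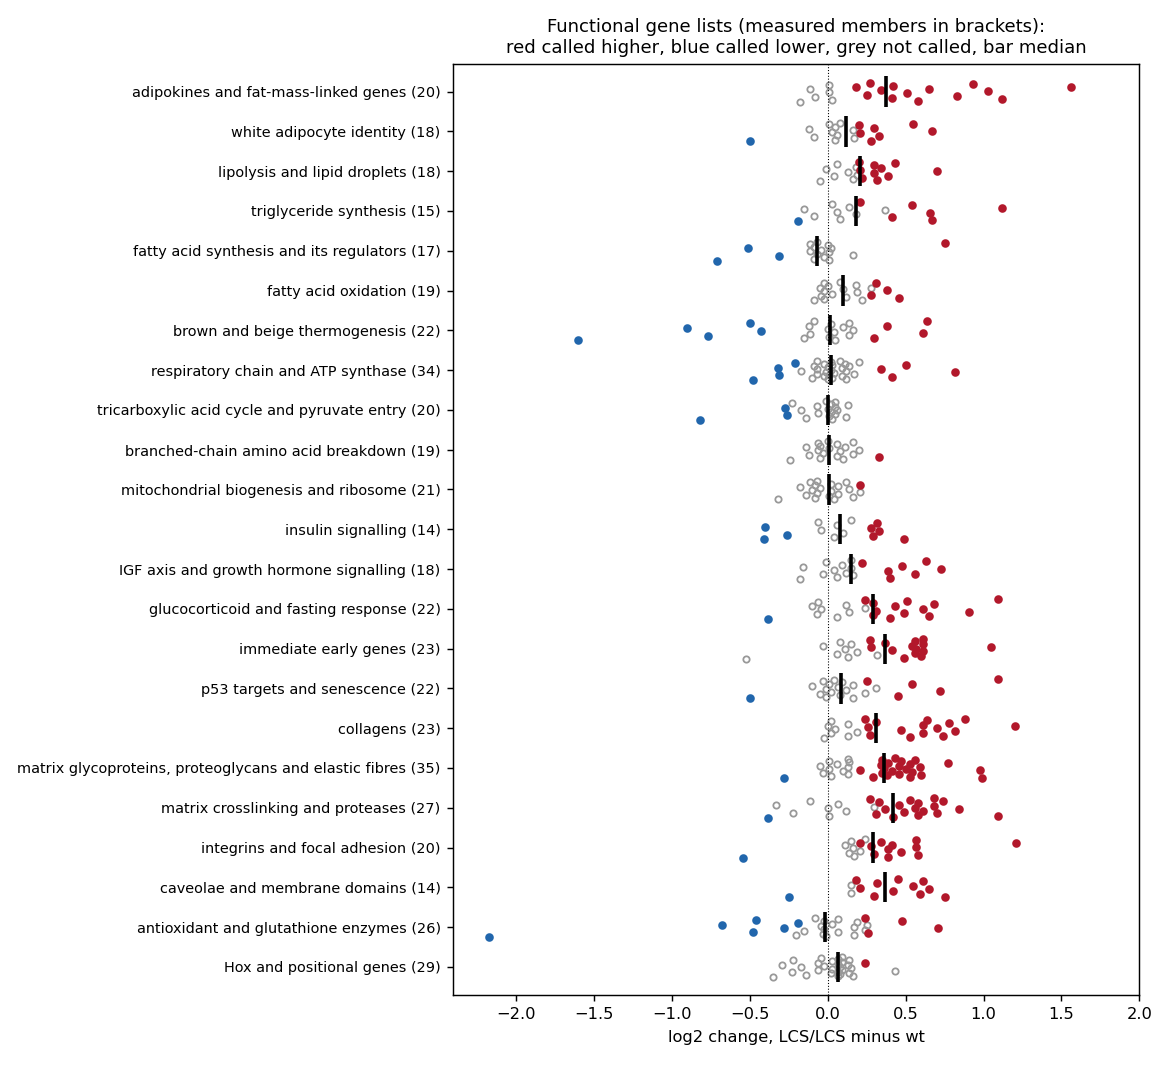
Log2 change, LCS/LCS minus wt (x axis), of each measured gene in 23 functional lists, with called genes in red (higher) or blue (lower), others as grey rings and the list median as a bar. Adipokine, matrix, integrin and caveola lists have medians of 0.29 to 0.42, while the mitochondrial and Hox lists lie around 0.

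Extracellular matrix genes were higher in LCS/LCS fat. Of 23 measured collagens, 15 rose and none fell, which is 65.2% of them, with a median change of 0.31, and 12 to 15 rose when any 1 array was left out. Col4a1 and Col4a2, the main chains of basement membrane collagen IV, and the chains of collagen VI, which surrounds adipocytes, were among those that rose. Col4a2 had 9.58, 9.47 and 9.43 in LCS/LCS and 8.26, 8.28 and 8.35 in wt, a ratio of 2.29 (log2 change 1.20, SE 0.06, limma adjusted p = 6.04e-06). Its partner chain Col4a1 had 10.08, 10.03 and 10.07 in LCS/LCS against 9.28, 9.28 and 9.29 in wt (log2 change 0.78, SE 0.05). Col6a1 had 10.80, 10.77 and 10.77 in LCS/LCS and 9.88, 9.88 and 9.94 in wt (log2 change 0.88, SE 0.06, adjusted p = 3.3e-05). Col6a2 rose by 0.82 (SE 0.05) and Col6a3 by 0.74 (SE 0.07), so that all 3 measured chains of the main collagen VI trimer were higher. The fibrillar collagens rose less, Col3a1 by 0.31 (SE 0.05) and Col1a1 by 0.24 (SE 0.05, adjusted p = 0.0152). The plot of collagen changes orders all 23.

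**Figure D4:**
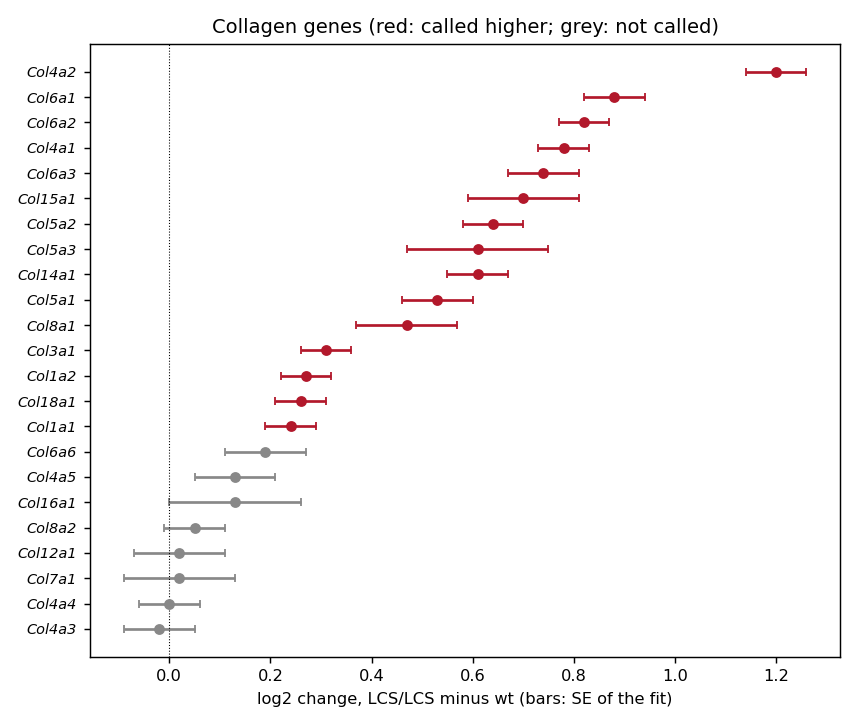
Log2 change, LCS/LCS minus wt (x axis, bars are the SE of the fit), of the 23 measured collagen genes, with called rises in red and the others in grey. Col4a2 stands at 1.20 and Col4a3 at -0.02, and the chains of collagen IV and VI that rose lie above the fibrillar Col1a1 and Col3a1.

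Among 35 matrix glycoproteins, proteoglycans and elastic fibre genes, 23 rose and 1 fell (65.7% and 2.9%), with a median of 0.36. Mfap5, a component of elastic microfibrils, had 10.98, 10.93 and 10.91 in LCS/LCS and 9.92, 9.92 and 10.00 in wt (log2 change 0.99, SE 0.07, limma adjusted p = 5.39e-05). Vcan, the proteoglycan versican, rose by 0.98 (SE 0.10) and Aspn, a small leucine-rich proteoglycan, by 0.77 (SE 0.13). Fn1, which encodes fibronectin, had 12.16, 12.13 and 12.15 in LCS/LCS and 11.65 on each wt array, a rise of 0.50 (SE 0.05), and was named after its values were seen. Thbs2 had a change of -0.28 (SE 0.07, adjusted p = 0.0371), and its call was lost without any of 5 of the 6 arrays. Enzymes that crosslink or cut the matrix had 18 rises and 1 fall among 27 (66.7% and 3.7%), with a median of 0.42. Mmp12, the elastase of macrophages, had 7.95, 7.86 and 7.94 in LCS/LCS and 6.83 on each wt array, a ratio of 2.12 (log2 change 1.09, SE 0.07). Bmp1, which trims procollagen, rose by 0.84 (SE 0.05) and Plod2, a collagen lysyl hydroxylase, by 0.74 (SE 0.10). Mmp2, a gelatinase, fell by 0.38 (SE 0.05, adjusted p = 0.00188).

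Receptors that bind the matrix were also higher. Of 20 integrin and focal adhesion genes, 12 rose and 1 fell, with a median of 0.29. Itga7, a laminin-binding integrin, had 9.48, 9.23 and 9.40 in LCS/LCS and 8.15, 8.09 and 8.24 in wt, a ratio of 2.31 (log2 change 1.21, SE 0.09, limma adjusted p = 4.75e-05). Itga6 rose by 0.58 (SE 0.05) and Itga5, of the fibronectin receptor, by 0.57 (SE 0.08), while Itga8 fell by 0.54 (SE 0.08). Caveolae, the small membrane pits that cover adipocytes, had 11 rises and 1 fall among 14 (78.6% and 7.1%), with a median of 0.37. Cavin3 rose to 11.75, 11.68 and 11.69 in LCS/LCS, against 10.93, 10.90 and 11.03 in wt (log2 change 0.75, SE 0.06). Cavin1, whose loss removes caveolae, rose by 0.65 (SE 0.07) and Ehd1 by 0.61 (SE 0.05).

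Growth factor pathways had mixed calls. Among 36 genes of the TGF-beta, BMP and activin pathway, 14 rose and 2 fell, with a median of 0.10, and 9 rose without wt replicate 1 or LCS/LCS replicate 1 or 3. Fstl3, a secreted activin antagonist, rose by 0.73 (SE 0.09) and Smad7, an inhibitor induced by TGF-beta, by 0.67 (SE 0.05). Bmp2 had LCS/LCS values of 6.56, 5.96 and 6.11 and wt values of 5.08, 5.79 and 5.10, a wide spread in both, and its call (0.89, SE 0.22, limma adjusted p = 0.0272) was lost without any of 4 arrays. Bmpr1b, a BMP receptor, fell to 6.32, 6.44 and 6.24, against 7.29, 7.26 and 7.41 in wt (log2 change -0.99, SE 0.07). In the Wnt pathway, 6 of 35 rose and 2 fell, or 10 and 3 after median centring. As deposited these are 17.1% and 5.7%, against 12.8% and 9.77% of all genes. The largest rises were of secreted modulators, Sfrp5 (above), Ccn5, a secreted matricellular protein, with 1.27 (SE 0.12), and Sfrp1 with 0.95 (SE 0.09). Axin2, a common target of Wnt signalling, fell by 0.35 (SE 0.07). In hypoxia and angiogenesis, 8 of 24 rose and 3 fell. Vegfa, the endothelial growth factor, had 11.19, 11.16 and 11.15 in LCS/LCS and 10.61, 10.62 and 10.64 in wt (log2 change 0.54, SE 0.04, adjusted p = 0.00011), and its receptor Kdr rose by 0.54 (SE 0.07). Egln3 and Pdk1, both known targets of hypoxia-inducible factors, fell, Egln3 to 7.07, 6.99 and 7.05, against 7.84 on each wt array (log2 change -0.80, SE 0.05).

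Of 20 blood endothelial markers 15 rose and none fell (75.0%), with a median of 0.32. Without LCS/LCS replicate 1 the count was 9. Sox18, an endothelial transcription factor, rose by 0.77 (SE 0.11), Cldn5, of endothelial tight junctions, by 0.72 (SE 0.12) and Aqp1, a water channel of capillaries, by 0.66 (SE 0.06). Pecam1, a defining marker, had 10.00, 9.97 and 9.98 in LCS/LCS and 9.72, 9.73 and 9.87 in wt (log2 change 0.21, SE 0.06, limma adjusted p = 0.0433), and Emcn had -0.06 (adjusted p = 0.617). The summed signal of the 20 was 13.88 to 13.95 in LCS/LCS and 13.56 to 13.67 in wt. Of 16 smooth muscle and pericyte markers 6 rose and 3 fell, with 3 rises without wt replicate 1 or LCS/LCS replicate 1. Their summed signal was 13.67 to 13.71 in LCS/LCS and 13.41 to 13.46 in wt. Acta2, the smooth muscle actin, had 12.05, 12.02 and 12.03 in LCS/LCS and 11.80, 11.83 and 11.83 in wt, a rise of 0.21 (SE 0.04, limma adjusted p = 0.0115), and was named after its values were seen. Rgs5, a pericyte marker, rose by 0.58 (SE 0.07, with 0.91 on its other probe set) and Actg2, an actin of visceral smooth muscle, by 0.70 (SE 0.08). The 3 falls were of other contractile genes: Cnn1 fell to 7.72, 7.62 and 7.84, against 8.56, 8.65 and 8.73 in wt (log2 change -0.92, SE 0.08), Myh11 by 0.71 (SE 0.06) and Tagln by 0.46 (SE 0.06).

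Mesothelial markers had 9 rises and 1 fall among 13, with a median of 0.42. Of the 13 changes, 10 lay above 0 and 3 below. Msln, which encodes mesothelin, had 8.23, 8.19 and 8.30 in LCS/LCS and 7.38, 7.24 and 7.49 in wt (log2 change 0.87, SE 0.10, limma adjusted p = 0.000597), and Upk3b, another defining marker, rose by 0.57 (SE 0.06). Lrrn4 and Krt19 were also chosen as defining markers, and no values are given for them here. Krt18, a keratin of many simple epithelia, fell by 0.50 (SE 0.09). Among 18 markers of adipose progenitors and fibroblasts, 8 rose and none fell. Pi16, a marker of universal fibroblast progenitors, had 9.09, 8.98 and 9.04 in LCS/LCS and 8.15, 8.14 and 8.19 in wt (log2 change 0.88, SE 0.06), and Cd34 rose by 0.50 (SE 0.06). Pdgfra (0.12, adjusted p = 0.273) and Dpp4 (-0.20, adjusted p = 0.0807), the other defining markers, did not pass the test.

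Macrophage markers were higher, 14 of 21 with 1 fall (66.7% and 4.8%) and a median of 0.43. Their summed signal was 14.0 to 14.11 in LCS/LCS and 13.54 to 13.7 in wt. Lyve1, carried by perivascular macrophages and by lymphatic vessels, had 10.22, 10.13 and 10.23 in LCS/LCS and 9.37, 9.34 and 9.49 in wt (log2 change 0.79, SE 0.06, limma adjusted p = 0.000104). Cd163, a haemoglobin scavenger receptor of resident macrophages, rose by 0.77 (SE 0.06) and the scavenger receptor Msr1 by 0.75 (SE 0.09). All 4 defining markers were called, with C1qa at 0.69, Adgre1 at 0.36 (adjusted p = 0.0495, close to the threshold), Cd68 at 0.35 and Csf1r at 0.26. Trem2, a lipid-sensing receptor of macrophages in obese fat, went the other way, at 7.41 ± 0.03 in LCS/LCS and 8.06 ± 0.07 in wt (SD, n = 3 each), a change of -0.65 (SE 0.12, limma adjusted p = 0.00821) between groups that did not overlap. Among 29 cytokines and chemokines, 7 rose and none fell (24.1%), or 11 after median centring, led by Ccl7 with 1.03 (SE 0.13), Ccl9 with 0.82 (SE 0.06) and Ccl2 with 0.59 (SE 0.08), which attract monocytes. Genes of antigen presentation on MHC class II had 5 rises and no fall among 9, with H2-Ab1 at 0.55 (SE 0.06). Cd80, a costimulatory ligand on antigen-presenting cells, rose by 0.84 (SE 0.12). Complement and coagulation had 8 rises and 1 fall among 21, and its largest rises were the C1q chains, C1qc at 0.72, C1qa at 0.69 and C1qb at 0.63. These 3 chains are also on the macrophage list, so their rises are counted in both.

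Of 19 T and NK cell markers 2 rose and 1 fell (10.5% and 5.3%), a count that was 0 to 3 and 0 to 1 when 1 array was left out, with a summed signal of 9.83 to 9.85 in LCS/LCS and 9.8 to 9.88 in wt. Their defining markers Cd3d and Cd3g were near the low end of the signal range in both genotypes. Of 12 B and plasma cell markers 3 rose and none fell, where 12.8% of all genes rose. Among them, Ebf1 is also a transcription factor of adipocytes, while Cd79a and Ms4a1 were not called. Of 12 mast cell, eosinophil and basophil markers 1 rose, Cpa3, a mast cell protease, by 0.50 (SE 0.09). Neutrophil markers had 1 rise and 1 fall among 12, the fall being Ltf, which encodes lactoferrin and is also made by glandular epithelia, with 5.86, 5.77 and 5.82 in LCS/LCS and 7.23, 7.27 and 7.41 in wt (log2 change -1.49, SE 0.08, limma adjusted p = 7.37e-06). Interferon-responsive genes had 6 rises and 2 falls among 23, with 3 rises without wt replicate 1 or LCS/LCS replicate 2 and 11 after median centring. Cxcl9, a chemokine induced by interferon gamma, fell to 8.95, 8.90 and 8.91, against 9.71, 9.69 and 9.88 in wt (log2 change -0.84, SE 0.11).

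**Figure D5:**
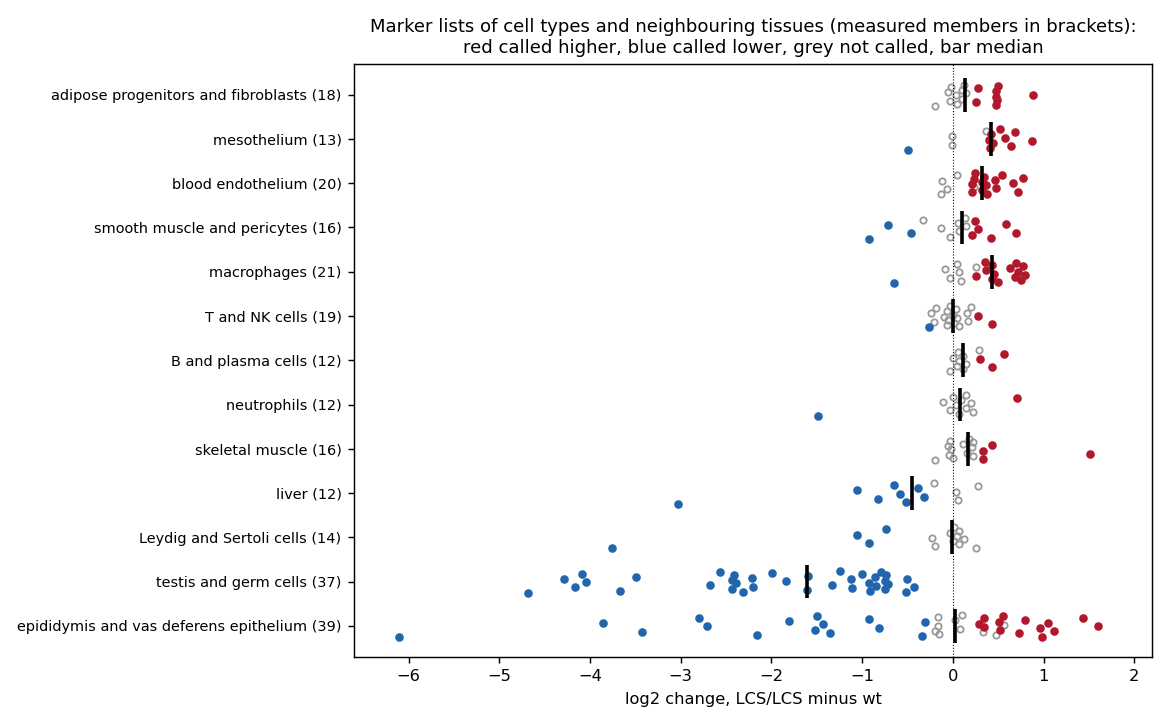
Log2 change, LCS/LCS minus wt (x axis), of each measured marker of 13 cell types and neighbouring tissues, with called genes in red (higher) or blue (lower), others as grey rings and the median as a bar. Macrophage, mesothelial and endothelial markers have medians of 0.32 to 0.43, all 37 testis and germ cell genes are called lower, and the epididymal list has 14 rises and 15 falls.

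Immediate early genes, which are switched on within minutes of a stimulus, had 14 rises and no fall among 23 (60.9%), with a median of 0.37. The count was 11 to 14 when any 1 array was left out. Ier3 had 9.49, 9.51 and 9.43 in LCS/LCS and 8.26, 8.48 and 8.54 in wt, a ratio of 2.07 (log2 change 1.05, SE 0.09, limma adjusted p = 0.000138). Egr1, a zinc finger transcription factor, had 8.06, 8.04 and 8.06 in LCS/LCS and 7.48, 7.42 and 7.42 in wt (log2 change 0.61, SE 0.06), and Zfp36, which destabilises cytokine mRNAs, rose by 0.61 (SE 0.06). Fos, a dimmer member, had 6.74, 6.50 and 6.54 in LCS/LCS and 5.94, 5.93 and 6.12 in wt (log2 change 0.60, SE 0.14), and was named, like Jun (0.57, SE 0.09), after its values were seen. Nr4a1 had 0.15 (SE 0.07, adjusted p = 0.194).

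A part of these genes is known to be induced through cyclic AMP response elements. The promoters of Dusp1, a phosphatase of MAP kinases, and Btg2, an antiproliferative gene that p53 also induces, are printed as 200 bases upstream of the start from RefSeq on GRCm38.p6, with the element TGACGTCA in capitals. That of Dusp1 is chr17:26508473-26508672, minus strand, and that of Btg2 chr1:134079156-134079355, minus strand.
Dusp1: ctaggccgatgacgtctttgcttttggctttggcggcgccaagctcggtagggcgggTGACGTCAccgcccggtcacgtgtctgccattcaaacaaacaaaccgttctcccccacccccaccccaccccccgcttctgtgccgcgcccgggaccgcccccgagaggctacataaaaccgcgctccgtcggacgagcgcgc
Btg2: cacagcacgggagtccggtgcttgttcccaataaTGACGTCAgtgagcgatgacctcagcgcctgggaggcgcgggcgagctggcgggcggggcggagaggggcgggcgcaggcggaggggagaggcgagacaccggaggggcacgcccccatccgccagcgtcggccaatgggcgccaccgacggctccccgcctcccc
The element starts at -143 in Dusp1 and at -166 in Btg2. Of the 18 immediate early genes with a promoter window these 2 held it (11.1%), against 478 of all 27025 genes with one (1.77%). Dusp1 had 10.67, 10.67 and 10.66 in LCS/LCS and 10.12, 10.18 and 10.23 in wt (log2 change 0.49, SE 0.05, limma adjusted p = 0.000562). Btg2 had 9.64, 9.63 and 9.55 in LCS/LCS and 9.07, 8.93 and 9.19 in wt (log2 change 0.54, SE 0.07, adjusted p = 0.00165). Both rose without overlap, and both were picked for printing after their values were seen.

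Genes of the glucocorticoid and fasting response had 13 rises and 1 fall among 22 (59.1% and 4.5%), with a median of 0.29. Cdkn1a, the cell cycle inhibitor p21, had 9.72, 9.67 and 9.68 in LCS/LCS and 8.56, 8.65 and 8.59 in wt, a ratio of 2.13 (log2 change 1.09, SE 0.05, limma adjusted p = 3.79e-06). Ddit4, an inhibitor of mTORC1, had 9.63, 9.47 and 9.60 in LCS/LCS and 8.70, 8.43 and 8.85 in wt (log2 change 0.91, SE 0.11). Fkbp5, a cochaperone and target of the glucocorticoid receptor, rose by 0.68 (SE 0.06), and Tsc22d3, another such target, named after its values were seen, by 0.65 (SE 0.06). Hsd11b1, which regenerates active glucocorticoid inside adipocytes, fell to 10.27, 10.21 and 10.30, against 10.66, 10.65 and 10.60 in wt (log2 change -0.38, SE 0.07). Of 22 p53 targets and senescence genes, 5 rose and 1 fell, or 8 and 1 after median centring. Besides Cdkn1a and Btg2, which are on more than 1 of these lists, Phlda3, a p53 target that restrains Akt, rose by 0.72 (SE 0.06). Trp53inp1, also a p53 target, fell to 8.94, 8.74 and 8.92, against 9.34, 9.34 and 9.42 in wt (log2 change -0.50, SE 0.07).

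Clock genes had 3 rises and 2 falls among 14, or 5 rises after median centring and 1 without wt replicate 1 or 2 or LCS/LCS replicate 1 or 3. Bhlhe40, a transcriptional repressor of the clock, had 8.73, 8.62 and 8.75 in LCS/LCS and 7.96, 7.92 and 8.02 in wt (log2 change 0.73, SE 0.06, limma adjusted p = 7.25e-05). Arntl, the core activator BMAL1, had 7.09 on each LCS/LCS array and 6.72, 6.62 and 6.92 in wt, but its call (0.34, SE 0.09, adjusted p = 0.0353) was lost without any LCS/LCS array and without wt replicate 1 or 2. Both falls were of -0.45 (SE 0.07), in Per3 and in Hlf, a PAR-domain factor, and Dbp had -0.15 (SE 0.05, adjusted p = 0.0794). The time of day at which tissue was taken is not given in the labels.

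Antioxidant enzymes had 4 rises and 6 falls among 26 (15.4% and 23.1%). Nqo1, a quinone reductase and common target of NRF2, had 5.92, 5.56 and 6.01 in LCS/LCS and 7.92, 7.93 and 8.15 in wt. It was 4.5-fold lower in LCS/LCS (log2 change -2.17, SE 0.13, limma adjusted p = 1.77e-05). Gpx3, a secreted glutathione peroxidase, was far brighter and fell by 0.68 (SE 0.05), and Gsta4 fell by 0.48 (SE 0.08). Hmox1, another NRF2 target, rose by 0.48 (SE 0.05), and Sod3, the extracellular superoxide dismutase, had 11.58, 11.56 and 11.59 in LCS/LCS and 10.86, 10.89 and 10.86 in wt, a rise of 0.71 (SE 0.07). Of 14 heat shock genes 5 rose and none fell. Hspb7, a small heat shock protein of heart and muscle, had 8.65, 8.57 and 8.58 in LCS/LCS and 7.11, 6.84 and 7.31 in wt, a ratio of 2.85 (log2 change 1.51, SE 0.12), and Cryab rose by 0.67 (SE 0.06). Autophagy and lysosome genes had 10 rises and 1 fall among 32 (16 and 1 after median centring), with Ctsz, a cathepsin, at 0.85 (SE 0.05) and Npc2, a lysosomal cholesterol carrier, at -0.47 (SE 0.05). The unfolded protein response had 6 rises and 1 fall among 25, or 10 rises after median centring and 3 falls after quantile normalization, led by Sdf2l1, a chaperone partner in the endoplasmic reticulum, with 0.76 (SE 0.07).

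Transporters and channels had 10 rises and 1 fall among 21. Slc5a7, the choline transporter of cholinergic nerves, had the largest rise of all genes named here, with 7.88, 7.72 and 7.95 in LCS/LCS and 5.44, 5.21 and 5.44 in wt, a ratio of 5.6 (log2 change 2.49, SE 0.09, limma adjusted p = 8.56e-07). Trpv2, a calcium-permeable channel, had 8.93, 8.78 and 8.79 in LCS/LCS and 7.16, 7.13 and 7.21 in wt (log2 change 1.67, SE 0.08). Aqp11, an aquaporin of intracellular membranes, fell to 7.11, 6.87 and 7.03, against 8.66, 8.77 and 8.79 in wt (log2 change -1.74, SE 0.11). In the cytochrome P450 and retinoid list, Cyp4f18, an omega-hydroxylase of leukotrienes, rose by 1.31 (SE 0.11) and Crabp2, a carrier of retinoic acid, fell by 1.16 (SE 0.10) at low signals of 5.11, 5.10 and 4.85, against 6.29, 6.24 and 6.01 in wt.

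Several lists stood near or below the shares of all genes, 12.8% higher and 9.77% lower. Of 28 cell cycle genes, 2 rose and 3 fell, or 5 rose after median centring and 1 fell without wt replicate 2 or 3 or any LCS/LCS array. Of 25 DNA repair genes 1 rose and 1 fell, neither of which was called without LCS/LCS replicate 1 or 3 or wt replicate 2. Among 29 Hox and positional genes only Hoxa9 was called, by 0.24 (SE 0.05), and its call was lost without wt replicate 1 or LCS/LCS replicate 3. Of 28 proteasome genes 3 rose and none fell, or 7 rose after median centring. No proteasome gene was called without wt replicate 1 or 2 or LCS/LCS replicate 1 or 3. Of 15 sirtuin and NAD genes 2 rose and none fell, or 1 without wt replicate 1 or 2 or any LCS/LCS array, with Sirt1 at -0.08 (SE 0.08, limma adjusted p = 0.637). A gene that was not called is not thereby shown to be equal in both genotypes.

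The largest differences of the whole comparison were in transcripts of the reproductive tract. Every one of the 37 measured testis and germ cell genes fell, with changes of -4.68 to -0.43 and a median of -1.61, and 36 of them under all 3 scalings. Odf1, a protein of the sperm tail, had 5.51, 5.34 and 5.81 in LCS/LCS and 10.22, 10.15 and 10.32 in wt (difference in signal -4.68, SE 0.12, limma adjusted p = 1.08e-07). Prm2, which packs sperm DNA, had 7.04, 6.78 and 6.80 in LCS/LCS and 11.05, 11.14 and 11.30 in wt (log2 change -4.29, SE 0.09). Ldhc, the lactate dehydrogenase of sperm, fell by 4.17 (SE 0.09). Their signals in LCS/LCS are partly near the low end of the arrays, where a difference in signal understates a difference in RNA. The somatic cells of the testis gave fewer calls: of 14 Leydig and Sertoli cell genes 4 fell, none rose and 10 were not called, with a median of -0.01. Clu, 1 of the falls, is also on the epididymal list. The largest fall was of Cyp17a1, an enzyme of androgen synthesis, at 4.64, 4.62 and 4.89 in LCS/LCS and 8.41, 8.51 and 8.50 in wt.

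The epididymal list had calls in both directions: 14 of its 39 genes rose and 15 fell, from -6.11 to 1.60, with a median of 0.02. Defb38, a beta-defensin of the epididymis, had 4.11, 3.51 and 4.08 in LCS/LCS and 10.10, 9.81 and 10.12 in wt, a difference in signal of -6.11 (SE 0.17, limma adjusted p = 2.03e-07). The LCS/LCS values lie below the lower quartile of those arrays, 4.35, and may be background, so no fold is given. The other defensins of the list, Defb37 and Defb39, had -3.86 (SE 0.25) and -3.43 (SE 0.07). Rnase9, named after its values were seen, fell to 9.66, 9.62 and 9.57, against 12.47, 12.38 and 12.41 in wt. Rnase10, a gene of the first part of the epididymis, had 11.86, 11.88 and 11.87 in LCS/LCS and 10.50, 10.52 and 10.31 in wt, a rise of 1.43 (SE 0.10), Teddm1a, an epididymal transmembrane protein, rose by 1.60 (SE 0.10), and Ly6g5c by 1.11 (SE 0.05). Gpx5 (0.10) and Adam7 (0.08, SE 0.05) were not called, and the SE of 0.32 of Gpx5 comes largely from G609G/G609G values of 4.92, 4.98 and 6.31, whose spread the fit shares. Spint4, a protease inhibitor of the same tract that is not on the list, had the largest difference in signal among genes with 1 symbol, with 5.23, 4.15 and 4.67 in LCS/LCS and 12.94, 12.97 and 12.92 in wt (-8.26 on the log2 scale, SE 0.22, adjusted p = 2.03e-07). Its LCS/LCS values too lie around 4.35, so the size of the difference in RNA is not known. Wfdc13 and Defb22 followed with -6.38 (SE 0.14) and -5.75 (SE 0.09). Which segment or how much of the duct lay in each sample was not tested.

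Of 12 liver genes 8 fell and none rose. Alb, which encodes albumin, had 6.98 on each LCS/LCS array and 10.04, 9.97 and 10.03 in wt, a change of -3.03 (SE 0.12, limma adjusted p = 1.61e-06), and Ahsg fell by 1.06 (SE 0.14). Fgb, a chain of fibrinogen, fell by 0.32 (SE 0.07) at the low end of the signal range, with 4.03, 4.01 and 3.80 in LCS/LCS and 4.26, 4.27 and 4.26 in wt. Npy, a neuropeptide of sympathetic nerves, was at 6.85, 5.83 and 6.25 in LCS/LCS and 10.15, 10.15 and 10.26 in wt, a change of -3.88 (SE 0.22), while Stmn2, a neuronal microtubule regulator, rose by 0.88 (SE 0.10). Npy was the 1 fall among 12 nerve and glia genes, of which 3 rose, with a median of 0.06. Acta1, the actin of skeletal muscle, had 10.81, 10.78 and 10.81 in LCS/LCS and 9.15, 9.29 and 9.42 in wt, a ratio of 2.85 (log2 change 1.51, SE 0.07). The creatine kinase of muscle, Ckm, had -0.03 (SE 0.13, adjusted p = 0.924) and stood below the array medians in both genotypes. Of the 16 muscle markers 4 rose, or 2 without LCS/LCS replicate 1, 6 after quantile normalization and 7 after median centring.

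Among the largest rises were also genes outside these lists. Sectm1b, a secreted and transmembrane immune ligand, had 6.80, 6.69 and 6.57 in LCS/LCS and 4.57, 4.43 and 4.52 in wt (log2 change 2.18, SE 0.07, limma adjusted p = 7.24e-07). Scoc, a short coiled-coil protein of the Golgi, rose by 2.02 (SE 0.26), and Rab9b, a late endosomal GTPase, by 1.89 (SE 0.19), with wt values of 6.78, 6.47 and 7.27 that were far apart. Elovl4, an elongase of very long fatty acids, had 8.51, 8.47 and 8.54 in LCS/LCS and 6.70, 6.85 and 6.85 in wt (log2 change 1.71, SE 0.12). Scube1, a secreted protein of endothelium and platelets, rose by 1.59 (SE 0.09) and Slc28a3, a nucleoside transporter, by 1.46 (SE 0.09). Among the brighter probe sets, Slc6a13, a GABA transporter, rose by 1.30 (SE 0.10) and Apobec3, a cytidine deaminase that restricts retroviruses, by 1.27 (SE 0.08). Apobec3 had 9.09, 9.03 and 9.08 in LCS/LCS and 7.71, 7.71 and 7.96 in wt.

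Set beside G609G/G609G fat, the LCS/LCS values lay on either side of wt in different genes. The contrast of LCS/LCS with G609G/G609G shares the LCS/LCS arrays with that against wt, and 51.1% of genes were higher and 11.3% lower in it, on arrays whose medians were 6.31 to 6.37 in LCS/LCS and 5.94 to 6.01 in G609G/G609G. Lep was at 12.31 to 12.40 in LCS/LCS, at 5.16, 5.34 and 5.45 in G609G/G609G, and at 11.24 to 11.25 in wt, and the difference between both Lmna alleles was 7.05 (log2, limma adjusted p = 4.29e-10). Cdkn1a was at 9.67 to 9.72 in LCS/LCS, at 11.27, 11.30 and 11.35 in G609G/G609G, and at 8.56 to 8.65 in wt. Ppargc1a was at 7.06 to 7.26 in LCS/LCS, at 8.99, 8.93 and 9.12 in G609G/G609G, and at 7.86 to 7.93 in wt. Col6a1 was at 10.77 to 10.80 in LCS/LCS, at 8.24, 8.30 and 8.42 in G609G/G609G, and at 9.88 to 9.94 in wt. Hspb7 had 8.57 to 8.65 in LCS/LCS, 8.45, 8.43 and 8.69 in G609G/G609G and 6.84 to 7.31 in wt, so both alleles stood above wt and their difference of 0.08 did not pass the test (adjusted p = 0.631). Spint4 was at 4.15 to 5.23 in LCS/LCS and at 12.47, 12.48 and 12.50 in G609G/G609G. The skeletal muscle list summed to 15.51 to 15.56 on the G609G/G609G arrays, and its part in these differences was not tested.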

How the data were processed

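The file analysed holds 1 column for each of 9 arrays. The values, as deposited, are signals on a log2 scale, inferred from their range. For background correction, summarisation and scaling, the sources used here name no method. The genome build mm9 is named in the submitters' processing notes. Total RNA of powdered frozen tissue was biotin-labelled, per the labels' protocols. Groups and replicate numbers come from the titles.

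Genes were named through the platform's probe annotation: of 23332 probe sets, 14996 had 1 symbol, 1019 had several and 7317 were not listed. Each gene stands on its brightest probe set over 9 arrays (135 genes had more than 1). The test was limma 3.58.1 (R 4.3.3) on all 9 arrays with a mean per genotype and 6 residual degrees of freedom, two-sided, with Benjamini-Hochberg adjustment over all probe sets at 0.05. The scripts were tested on simulated data. The number of arrays limits the precision. Replicate numbers were not used to pair the arrays in this test. The series' methods name a t-test with a fold of 1.5, used as an alternative. Other alternatives were scalings, moderation, weights, filters and leaving out each array.

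The members and all 73 gene lists were chosen with earlier results of these data known. Named genes are the 15 largest rises and falls, the 10 largest among the brightest 25%, up to 3 rises and 3 falls per list and 16 measured fixed genes (18 listed). Predicted genes, receptors of smell, histones, immune receptor segments and small RNAs were skipped. Any other gene named was chosen after its values were seen. Tables and figures used Python 3.11.15, pandas 2.3.3 and matplotlib 3.10.9.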

Additional observations from a re-analysis of the deposited data

How the results depend on the processing

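As deposited, 2194 probe sets were called higher and 1811 lower (4005). None of the 4005 changed sign under any of the refits listed here. Median centring called 3551 higher of 5249, against 2194 of 4005, and array weights called 3994 higher of 6511. A fold of at least 1.5 as well left 507 and 878 (1385), an adjusted p of 0.01 or less left 1151 and 1144 (2295), and the methods' t-test at their threshold of fold and unadjusted p called 544 and 943 (1487), or 4019 after Benjamini-Hochberg adjustment. At the methods' threshold the list members called were 110 higher and 80 lower (374 and 143 in limma), and the named genes 96 and 53 (175 and 103). Leaving out any 1 array gave 2669 to 4805 calls, 1322 to 2736 higher and 1287 to 2069 lower. The list members called were then 281 to 415 higher and 117 to 160 lower, and the named genes 146 to 174 higher and 83 to 103 lower. With the replicate number as a block, 3861 probe sets were called, 3571 of them among the 4005. Deviations of LCS/LCS and wt arrays with the same number correlated at -0.071, 0.084 and 0.028, and with different numbers at -0.143 to 0.116. With deviations from a mean of 3 arrays, such weak values cannot settle whether the numbers pair the arrays. Of 278 named genes called, 50 lost the call without some array. Direction changed for 5 uncalled genes: Adipoq was -0.04, Lpl -0.01 and Retn -0.05 after quantile normalization, Fasn was 0.03 and Lmna 0.02 after median centring, and leaving out 1 array gave -0.06 to 0.01 for Lmna and -0.01 to 0.02 for Retn. Without detection calls, signals near the low end of the arrays cannot be told from background.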

Other observations

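Probe sets without a single gene symbol, 8336 in all, were left out of the gene counts. Of these, 284 were called higher and 356 lower in LCS/LCS than in wt (limma), and their median fall was -0.637.

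In smaller lists, Hhip, an antagonist of Hedgehog ligands, fell to 5.26, 5.23 and 5.13 in LCS/LCS, against 5.84, 5.98 and 6.15 in wt (log2 change -0.78, SE 0.09), and Dll4, a Notch ligand of endothelium, rose by 0.38 (SE 0.05). Alas2, the heme synthesis enzyme of red blood cell precursors, had 7.52, 7.52 and 7.50 in LCS/LCS and 8.52, 8.56 and 8.63 in wt (log2 change -1.06, SE 0.05). Gp9, a platelet membrane glycoprotein, fell by 1.31 (SE 0.17). Their list of red blood cells and platelets had 4 falls and 1 rise, that of Pf4, among 8 genes. Mc2r, the receptor of the pituitary hormone ACTH, is expressed in mouse adipocytes as well as in the adrenal gland, and rose by 0.40 (SE 0.06). Pdpn, carried by lymphatic endothelium, mesothelium and fibroblasts, rose by 0.68 (SE 0.06). Nnmt, an enzyme that methylates nicotinamide, rose by 0.37 (SE 0.07).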
